A study of Mus musculus with 6 samples.

Results

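The genes described here are 40 genes of the G1 to S transition and of DNA replication, chosen by name from textbook roles, among 54532 genes measured by RNA sequencing in mouse heart ventricles. All 40 symbols mapped to an Ensembl identifier through the GENCODE M21 annotation, and all 40 passed the filter on low values (0.5 FPKM or more on average across libraries), which 14149 genes passed in total. FPKM, the deposited unit, scales fragments to gene length and library depth, so levels can be set side by side between genes. Ventricles were collected at E12.5 from 3 control samples and from 3 samples of a conditional knockout of LSD1, the histone demethylase encoded by Kdm1a. The labels used here name the genotypes as CTL and LSD1-KO and give no allele, Cre driver or strain, nor whether a sample was 1 embryo or a pool. Each p-value is thus set against the variation among these libraries, some of which may be technical. In bulk tissue, fewer cells in S phase and less RNA per cell cannot be told apart.

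DNA replication is prepared in G1, when the loaders CDC6 and CDT1 place the MCM helicase, a ring built from the MCM2 to MCM7 subunits, on replication origins. At the start of S phase, cyclin E with CDK2 and the kinase CDC7 with its activator DBF4 turn the loaded ring into an active helicase by adding CDC45 and the GINS complex. E2F transcription factors, held back by the retinoblastoma family in resting cells, drive many of these genes together. The embryonic ventricle grows largely by division of its cardiomyocytes.

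Many of these genes share a promoter sequence that the choice by name did not use. In RefSeq promoter windows (GRCm38.p6, 250 bases before to 50 bases after each start site, 38 windows of 33 of the 40 genes), 14 windows (36.8%) held an exact match to an E2F consensus, in any of the forms TTTCCCGC, TTTCGCGC, TTTGCCGC or TTTGGCGC on either strand. Of all 32851 windows of the same length, 2.26% held one. The windows of the replication genes were also richer in G and C (median 61.8% against 52.7%). The shorter CCAAT box was found in 60.5% of their windows and in 37.4% of all windows, the cell cycle homology motif TTTGAA in 18.4% and 17.9%, and TATAAA in 5.26% and 13.6%. All motifs were searched on both strands, and matches can share bases, as those of the E2F forms on opposite strands do in Mcm5 and Mcm6. A match describes letters and is not a measured binding site. Ccne2, Gins1, Gins2, Mcm4, Pole, Rfc2 and Tipin were without an entry in the table.

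The stretches of 60 bases below, 1 for each such gene, lie around a match, wholly before a RefSeq start site and outside annotated exons, and show the shared element in its context. Those of Cdc6 and Uhrf1 are inside the span of the GENCODE gene, before a later start site, and the others are upstream of the gene. They are written 5′ to 3′ on the gene's strand, with the letters of the E2F consensus, on either strand, in capitals. The Mcm5 stretch is chr8:75109330-75109389 (plus strand), that of Mcm6 chr1:128359782-128359841 (minus), that of Cdc6 chr11:98907987-98908046 (plus), that of Cdc25a chr9:109875486-109875545 (plus), that of Pola1 chrX:93632260-93632319 (minus) and that of Uhrf1 chr17:56304102-56304161 (plus).
Mcm5: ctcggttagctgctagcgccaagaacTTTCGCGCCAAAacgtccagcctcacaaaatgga
Mcm6: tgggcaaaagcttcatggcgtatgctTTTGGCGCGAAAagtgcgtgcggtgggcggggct
Cdc6: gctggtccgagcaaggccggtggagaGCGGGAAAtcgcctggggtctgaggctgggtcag
Cdc25a: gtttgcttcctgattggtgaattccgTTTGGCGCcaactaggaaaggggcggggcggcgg
Pola1: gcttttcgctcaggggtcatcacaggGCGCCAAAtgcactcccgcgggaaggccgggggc
Uhrf1: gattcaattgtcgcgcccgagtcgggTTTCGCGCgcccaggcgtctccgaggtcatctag

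**Figure D1:**
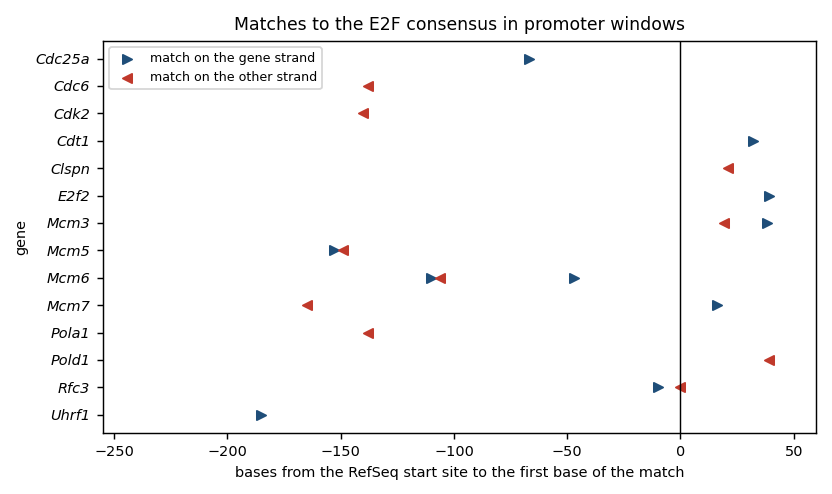
Distance in bases from the RefSeq start site (0, vertical line) to the first base of each E2F consensus match (x axis) in the promoter windows of the 14 genes that held one (y axis), with the strand of the match shown by the direction and colour of the marker. Of the 20 matches, 12 begin before the start site, and 5 genes have more than 1 match.

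The groups differed in the targeted gene. Kdm1a was at 29.99, 29.7 and 22.8 FPKM in control replicates 1 to 3 and at 10.7, 11.8 and 11.0 FPKM in the knockout libraries (log2 difference -1.22, limma adjusted p = 0.00274). Depth, as whole reads worked back from FPKM and gene length, was 17896522 to 20073958 reads a library. Each of the 40 genes had at least 52 recovered reads in every library, and each except Fen1 at least 241. The ventricular light chain gene Myl2, between 3096 and 3567 FPKM in the 6 libraries, checks the tissue label. Control replicate 3 stood apart from the other controls in markers of cell types: the summed level of 15 cardiomyocyte markers was 16762 FPKM, against 19443 and 21275 FPKM in the other controls, while the sums of 12 erythroid markers (18025 FPKM, against 8054 and 10677) and of 9 cushion mesenchyme and fibroblast markers (526 FPKM, against 331 and 335) were higher. In the knockout libraries the same sums were 17810 to 19484, 7922 to 16540 and 316 to 407 FPKM, and 0 members of these 3 lists were called. Control replicate 3 was also above the other controls in the sums of 12 endothelial and endocardial markers (298 FPKM, against 221 and 216), 8 immune markers (115 FPKM, against 90.8 and 87.0) and 7 neural crest markers (44.5 FPKM, against 26.7 and 30.1), and between them in 8 epicardial markers (305 FPKM, against 340 and 268). The knockout libraries had 256 to 316, 109 to 124, 43.4 to 48.8 and 291 to 323 FPKM, with 1 lower call among the endothelial markers and 0 calls in the other 3 lists. Only 7 of the 8 immune and 4 of the 7 neural crest markers passed the filter and were tested. Over all genes tested, 1.91% were called higher and 0.466% lower. Of the 12 endothelial markers, 10 lay above 0 and 2 below (16.7% below, against 54.1% of all genes tested). Without control replicate 3, limma called 2 of them higher and 1 lower. In that fit 1 of the 7 immune and 1 of the 4 neural crest markers were also called higher. It gave 0 calls among the cardiomyocyte, epicardial, cushion mesenchyme and erythroid markers. Over all genes tested it called 1.93% higher and 0.763% lower. Mitochondrial genes took 9.03% of the FPKM sum in control replicate 3, 6.81% and 6.09% in the other controls and 4.64% to 7.10% in the knockouts. No listed marker was at 0 in all 6 libraries. The part of these differences in the levels of the replication genes was not tested.

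No S phase or replication gene passed the test between genotypes. Of the 40 genes, 0 were called higher and 0 lower by limma (Benjamini-Hochberg adjusted p under 0.05 over all genes tested), where 1.91% of all genes tested were called higher and 0.466% lower. The smallest adjusted p among the 40 was 0.279, for Ccne1. At an unadjusted p under 0.05, 1 of the 40 was higher and 1 lower, against 8.67% and 7.40% of all genes tested. The fitted differences ran from -0.26 to 0.26 on the log2 scale. Their median was -0.06, against -0.01 for all genes tested, and 30 of the 40 lay below 0 (75.0%, against 54.1% of all genes tested). Below 0 also lay 73.9% of 69 further replication genes, 80% of 20 G2 and mitosis genes and 73.3% of 15 cardiomyocyte markers. The cardiomyocyte median was -0.08, and -0.16 without control replicate 3. For cushion, erythroid and epicardial markers the shares below 0 were 66.7%, 50% and 25%. For endothelial, immune and neural crest markers they were 16.7%, 14.3% and 0%. Rescaling each library to the same FPKM sum shifted all genes upward, to a median of 0.05 for all genes tested and 0.02 for the 40, of which 17 then lay below 0. The median of the 40 minus that of all genes tested was -0.05 before and -0.04 after this rescaling. It was -0.01 with quantile normalization, and over the alternative settings it ran from -0.11 (without control replicate 3) to 0.004 (without control replicate 1).

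The precision of the measurement limits how large a difference could have gone unseen. For each of the 40 genes the 95% interval of the difference, from limma on log2(FPKM + 1) and not adjusted for the number of genes, lay within 1.5-fold in either direction, as it did for 12119 of the 14149 genes tested. As ratios of FPKM + 1, the lowest bound was 0.694 of the control level, for Gins1, and the highest 1.41 times it, for Ccne1. The added 1 FPKM understates folds of low genes such as Fen1 and E2f2.

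**Figure D2:**
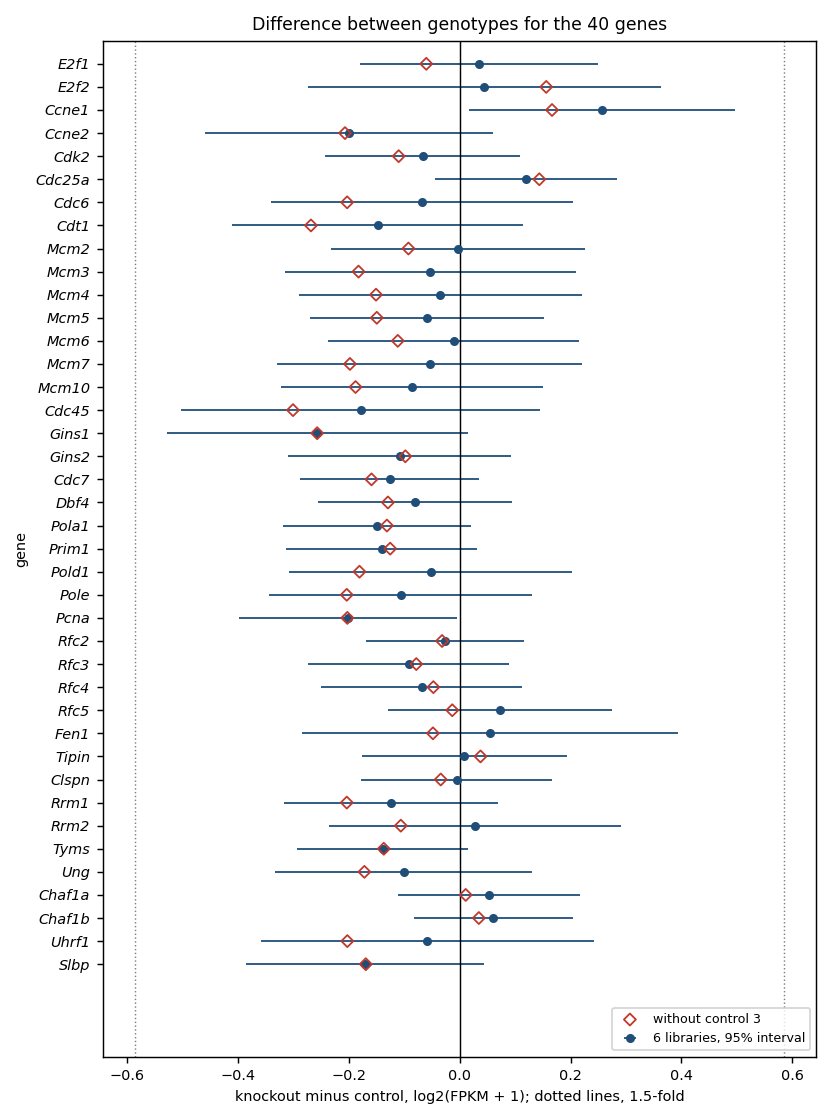
Knockout minus control difference in log2(FPKM + 1) (x axis) for each of the 40 genes (y axis): filled points with 95% intervals are from the fit of 6 libraries, open diamonds from the fit without control replicate 3. All intervals lie inside the dotted lines at 1.5-fold, and 34 of the 40 diamonds lie below 0, against 53.8% of all genes tested in that fit.

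Among the genes of the G1 to S switch, cyclin E1 and cyclin E2 lay on opposite sides of 0. Ccne1 (chromosome 7, 38097984 to 38107534, minus strand of mm10) encodes a cyclin that activates CDK2 at the start of S phase, and its level was 12.9, 14.4 and 11.1 FPKM in the control and 17.0, 14.8 and 14.5 FPKM in the knockout libraries. All knockout libraries were above the control range, the closest pair being control replicate 2 and knockout replicate 3, and the difference was 0.26 (SE 0.10, limma adjusted p = 0.279). It was the only 1 of the 40 genes with all knockout libraries above the control range, as were 11.0% of all genes tested. Ccne2, whose product has the same partner kinase, was at 19.3, 16.1 and 17.4 FPKM in control and at 17.4, 13.0 and 15.5 FPKM in knockout libraries. Its groups overlapped, with knockout replicate 2 the lowest library (difference -0.20, limma adjusted p = 0.426), and 17.4% of its exon bases lie under Ints8, whose reads cannot be told apart without strand. Cdk2, the kinase itself, was at 16.2 ± 1.45 FPKM in control and 15.4 ± 0.399 FPKM in knockout (SD, n = 3 each). Cdc25a, the phosphatase that removes inhibitory phosphates from CDK2, was at 7.33 ± 0.251 and 8.05 ± 0.547 FPKM. The activator genes E2f1 and E2f2 were at 14.6 ± 1.73 and 3.43 ± 0.678 FPKM in control and at 14.9 ± 0.747 and 3.56 ± 0.568 FPKM in knockout. E2f2 was highest in control replicate 3, the library in which E2f1 was lowest.

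The origin loaders showed how much control replicate 3 weighed on the comparison. Cdt1 was at 30.8, 28.9 and 23.0 FPKM in control and at 26.8, 23.2 and 23.9 FPKM in knockout libraries. Cdc6, an ATPase of the loading reaction, was at 7.28, 6.60 and 4.99 FPKM in control and at 5.94, 5.85 and 5.89 FPKM in knockout libraries. In both genes control replicate 3 was the lowest of the 6 libraries and the other controls were above every knockout library. With all libraries the differences were -0.15 (limma adjusted p = 0.571) for Cdt1 and -0.07 (0.829) for Cdc6. Without control replicate 3 they were -0.27 (limma adjusted p = 0.131) and -0.20 (0.176).

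All 6 genes of the MCM2 to MCM7 ring were also lowest in control replicate 3. Mcm3 was at 56.4, 59.2 and 43.9 FPKM in control and at 52.7, 51.9 and 47.9 FPKM in knockout libraries, and Mcm5 at 48.5, 46.7 and 39.3 FPKM and at 45.2, 42.5 and 40.9 FPKM. For these genes too, control replicate 3 was below all knockout libraries and the other controls above them. Mcm7 was at 60.9, 59.2 and 44.3 FPKM in control and at 53.8, 52.3 and 50.6 FPKM in knockout libraries, with 12.6% of its exon bases under other genes, among them Ap4m1 and Cops6. Mcm2, Mcm4 and Mcm6 stood at 29.3 ± 3.18, 39.3 ± 5.64 and 54.996 ± 6.84 FPKM in control, and at 29.2 ± 2.49, 38.2 ± 2.59 and 54.3 ± 2.60 FPKM in knockout (SD, n = 3 each). The limma adjusted p-values of the 6 genes were 0.804 or above.

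The subunits kept nearly fixed proportions while their common level varied. The summed level of the 6 genes was 301, 294 and 234 FPKM in control and 276, 273 and 253 FPKM in knockout libraries. Mcm2 gave the smallest share of that sum in every library, 10.2% to 11.4%, and Mcm6 19.3% to 20.6%. The shares of Mcm3, Mcm4, Mcm5 and Mcm7 ran from 18.7% to 20.1%, from 13.6% to 15.0%, from 15.6% to 16.8% and from 19.0% to 20.2%. The SD of a subunit's log2 share over the 6 libraries was between 0.033 and 0.056, and that of its log2 level between 0.118 and 0.166. Mcm6, Mcm7 and Mcm3 were close in level, at 54.996, 54.8 and 53.1 FPKM in control, well within their SDs of 6.84 to 9.14 FPKM, and Mcm5, Mcm4 and Mcm2 followed in that order.

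**Figure D3:**
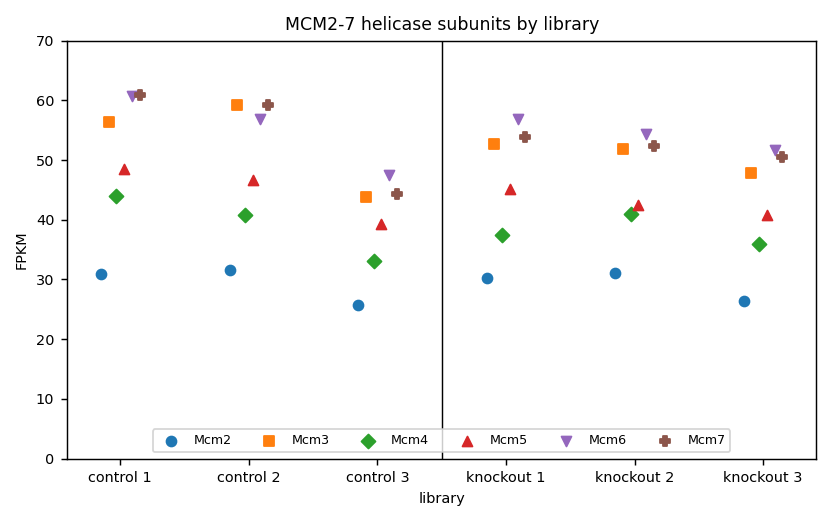
FPKM (y axis) of the 6 MCM ring subunits in each library (x axis), with controls left and knockouts right of the line. The subunits keep nearly the same order in each library, and all 6 have their lowest value in control replicate 3, where their sum was 234 FPKM.

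The genes that activate the loaded helicase were lower in the knockout mean without passing the test. Gins1, a GINS subunit, was at 24.6, 18.5 and 21.3 FPKM in control and at 19.3, 18.3 and 15.7 FPKM in knockout libraries. The highest knockout library was above the lowest control, and the difference was -0.26 (SE 0.12, limma adjusted p = 0.336). Cdc7, the origin-firing kinase, was at 6.35, 6.07 and 5.73 FPKM in control and at 5.56, 5.19 and 5.64 FPKM in knockout libraries, with no overlap of the groups and a difference of -0.13 (SE 0.07, limma adjusted p = 0.416). Its activator Dbf4 stood at 5.56 ± 0.382 and 5.20 ± 0.283 FPKM, Cdc45, which travels with the helicase, at 12.51 ± 1.91 and 11.0 ± 1.88 FPKM, and Mcm10, which helps to activate it, at 4.02 ± 0.613 and 3.70 ± 0.186 FPKM (control and knockout, SD, n = 3 each). Gins2 was at 12.9 ± 1.37 and 11.8 ± 0.626 FPKM, but 67.3% of its exon bases lie under Gse1.

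Polymerase and primase genes were likewise below their control mean. Pola1 (chromosome X, 93304767 to 93632155, minus strand), the catalytic subunit of the polymerase that starts each new strand, was at 6.14, 6.001 and 6.33 FPKM in control and at 5.56, 5.005 and 5.83 FPKM in knockout libraries. Its groups did not overlap, and the difference was -0.15 (SE 0.07, limma adjusted p = 0.368). Pola1 is X-linked, and knockout replicate 3 differed in sex-linked RNA, with 12.1 FPKM of Xist and 0 FPKM of Ddx3y, against at most 1.11 FPKM of Xist and at least 13.0 FPKM of Ddx3y in the other libraries. That library had the highest Pola1 level among the knockouts, and the part of sex in it was not tested. Prim1, the primase that lays RNA primers, was at 16.2, 14.6 and 15.9 FPKM in control and at 14.0, 13.1 and 15.0 FPKM in knockout libraries, where knockout replicate 3 was above control replicate 2 (difference -0.14, limma adjusted p = 0.399). The catalytic subunits of the polymerases that copy the lagging and the leading strand, Pold1 and Pole, were at 16.0 ± 2.56 and 3.84 ± 0.592 FPKM in control and at 15.2 ± 0.269 and 3.48 ± 0.189 FPKM in knockout (SD, n = 3 each).

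The sliding clamp gene Pcna (chromosome 2, 132249162 to 132253314, minus strand) had the highest level of the 40 genes. It was at 168, 151 and 159 FPKM in control and at 151, 127 and 138 FPKM in knockout libraries. Control replicate 2 and knockout replicate 1 were level, and knockout replicate 2 was the lowest. The knockout mean was 0.870 of the control mean (difference -0.20, SE 0.08, unadjusted p = 0.0466, limma adjusted p = 0.302). Rfc3, a gene of the loader that opens the clamp, was at 14.6, 13.8 and 14.6 FPKM in control and at 14.9, 12.46 and 13.0 FPKM in knockout libraries, so that the highest and the lowest value were both from knockouts. Rfc2, Rfc4 and Rfc5, subunits of the same loader, were at 16.0 ± 0.430, 36.5 ± 2.70 and 16.4 ± 1.80 FPKM in control and at 15.7 ± 0.628, 34.8 ± 2.12 and 17.3 ± 0.707 FPKM in knockout (SD, n = 3 each), and 15.1%, 12.7% and 10.7% of their exon bases lie under other genes. Rfc4 was above Rfc2, Rfc3 and Rfc5 in all 6 libraries. Fen1, the nuclease that removes primer flaps, had the lowest level of the 40 genes, 1.52 ± 0.301 and 1.63 ± 0.427 FPKM, and 84.2% of its exon bases lie under Tmem258 or Gm10143, so its level is uncertain.

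The genes of fork protection lay close to 0. Tipin, a partner of Timeless at the fork, was at 35.5, 31.0 and 35.3 FPKM in control and at 36.7, 32.4 and 33.3 FPKM in knockout libraries. Clspn, which encodes the checkpoint mediator claspin, was at 4.34, 4.35 and 4.04 FPKM in control and at 4.10, 4.02 and 4.56 FPKM in knockout libraries. The groups overlapped for both, and the limma adjusted p-values were 0.972 and 0.983. As ratios of FPKM + 1 to control, the 95% intervals ran from 0.885 to 1.14 and from 0.884 to 1.12.

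Among the genes of nucleotide supply, Tyms had the tightest controls. Tyms (chromosome 5, 30058202 to 30073617, minus strand), which makes thymidylate, was at 12.0, 12.3 and 12.2 FPKM in control and at 11.3, 10.2 and 11.4 FPKM in knockout libraries. Every knockout library was below the control range, and the difference was -0.14 (SE 0.07, limma adjusted p = 0.356). Rrm1, the large subunit of ribonucleotide reductase, was at 33.4, 32.8 and 27.8 FPKM in control and at 29.9, 27.4 and 28.4 FPKM in knockout libraries. Here control replicate 3 lay among the knockouts (difference -0.12, limma adjusted p = 0.513, and -0.20 without that library, limma adjusted p = 0.136). Rrm2, its small subunit, was at 106, 99.5 and 77.4 FPKM in control and at 95.1, 94.6 and 95.9 FPKM in knockout libraries. The knockouts were close together (SD 0.654 FPKM) and the controls lay on both sides of them (SD 14.9 FPKM). Ung, which removes uracil from DNA, was at 11.3 ± 1.68 and 10.4 ± 0.385 FPKM.

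Among chromatin genes of S phase, Slbp varied among the knockouts and Uhrf1 among the controls, while Chaf1a and Chaf1b were similar in both groups. Slbp, which binds the stem-loop of replication-dependent histone mRNAs, was at 13.2, 13.2 and 13.3 FPKM in control and at 13.5, 10.5 and 11.1 FPKM in knockout libraries. Knockout replicate 1 was at the control level and the other knockouts were below it (difference -0.17, limma adjusted p = 0.411). Without knockout replicate 1 Slbp had the smallest adjusted p of the 40 genes, 0.167. Chaf1b, a subunit of the histone chaperone CAF-1, was at 10.7, 10.1 and 9.83 FPKM in control and at 10.6, 10.8 and 10.7 FPKM in knockout libraries. Chaf1a, the large subunit, was at 4.32 ± 0.265 and 4.52 ± 0.113 FPKM, with 52.5% of its exon bases under Ubxn6. Uhrf1, which recognises hemimethylated DNA behind the fork, was at 34.7 ± 6.01 and 33.0 ± 2.76 FPKM (SD, n = 3 each). Control replicate 3 was its lowest library, at 27.9 FPKM, and the other controls were above every knockout library. The difference was -0.06 (limma adjusted p = 0.870), and -0.20 without that control library (limma adjusted p = 0.238).

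**Figure D4:**
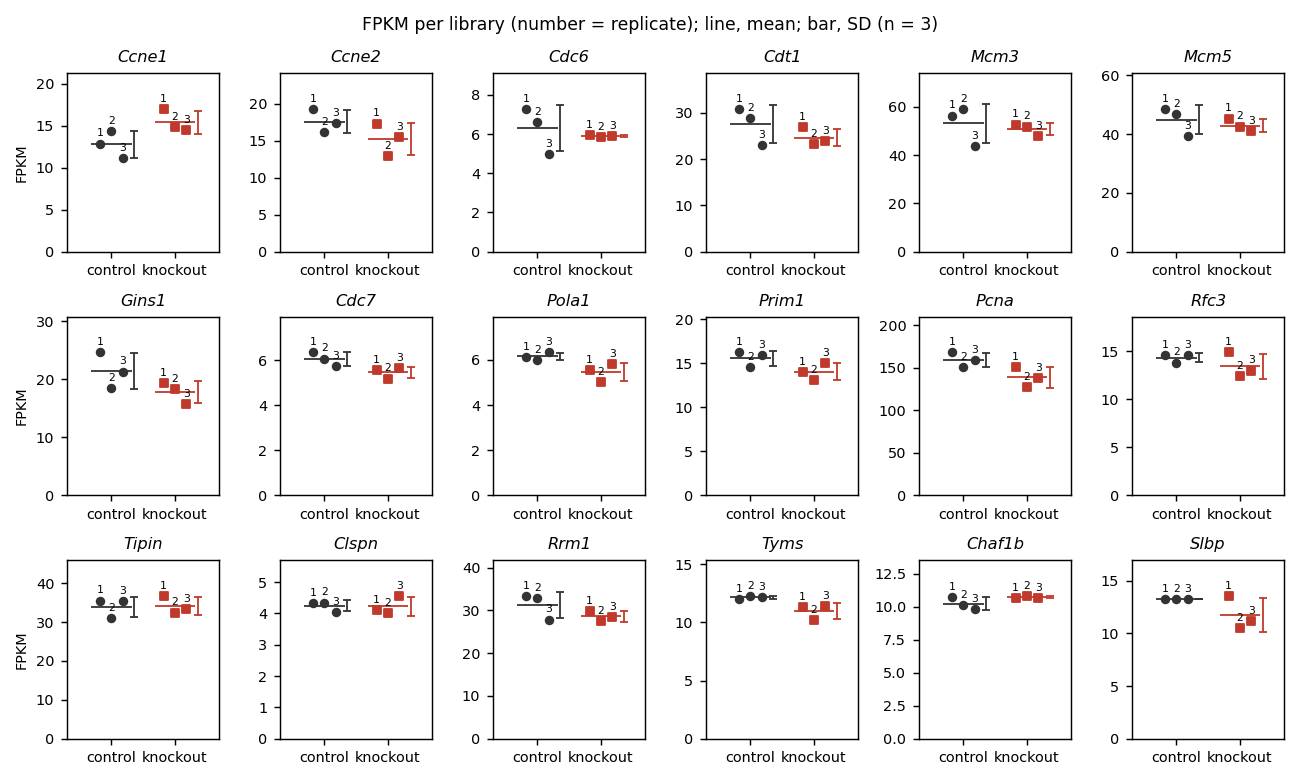
FPKM (y axis, from 0) per library for the 18 genes with the smallest p in each role, controls as black circles and knockouts as red squares, numbered by replicate, with the group mean (line) and SD (bar, n = 3). Ccne1 has all knockouts above the controls, and Cdc7, Pola1 and Tyms have all knockouts below them.

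Over the 40 genes, Cdc7, Pola1 and Tyms were the 3 with all knockout libraries below the control range, as were 10.4% of all genes tested. For the other 36 genes apart from Ccne1 the groups overlapped. Control replicate 3 was the lowest of the 6 libraries for 20 of the 40 genes, against 19.3% of all genes tested, and knockout replicate 2 for 12, against 15.9%. Control replicate 1 was the highest for 18 genes and the lowest for 0, against 19.0% and 16.6% of all genes tested. In mean log2(FPKM + 1) the 40 genes stood at 4.14, 4.09 and 3.95 in control and at 4.06, 3.98 and 3.97 in knockout libraries. All genes tested stood between 2.97 and 2.98 in each library. The median coefficient of variation of the 40 genes was 10.9% among controls and 5.76% among knockouts, against 9.997% and 7.99% for all genes tested. It was larger among controls for 28 of the 40, a count not made over all genes tested.

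**Figure D5:**
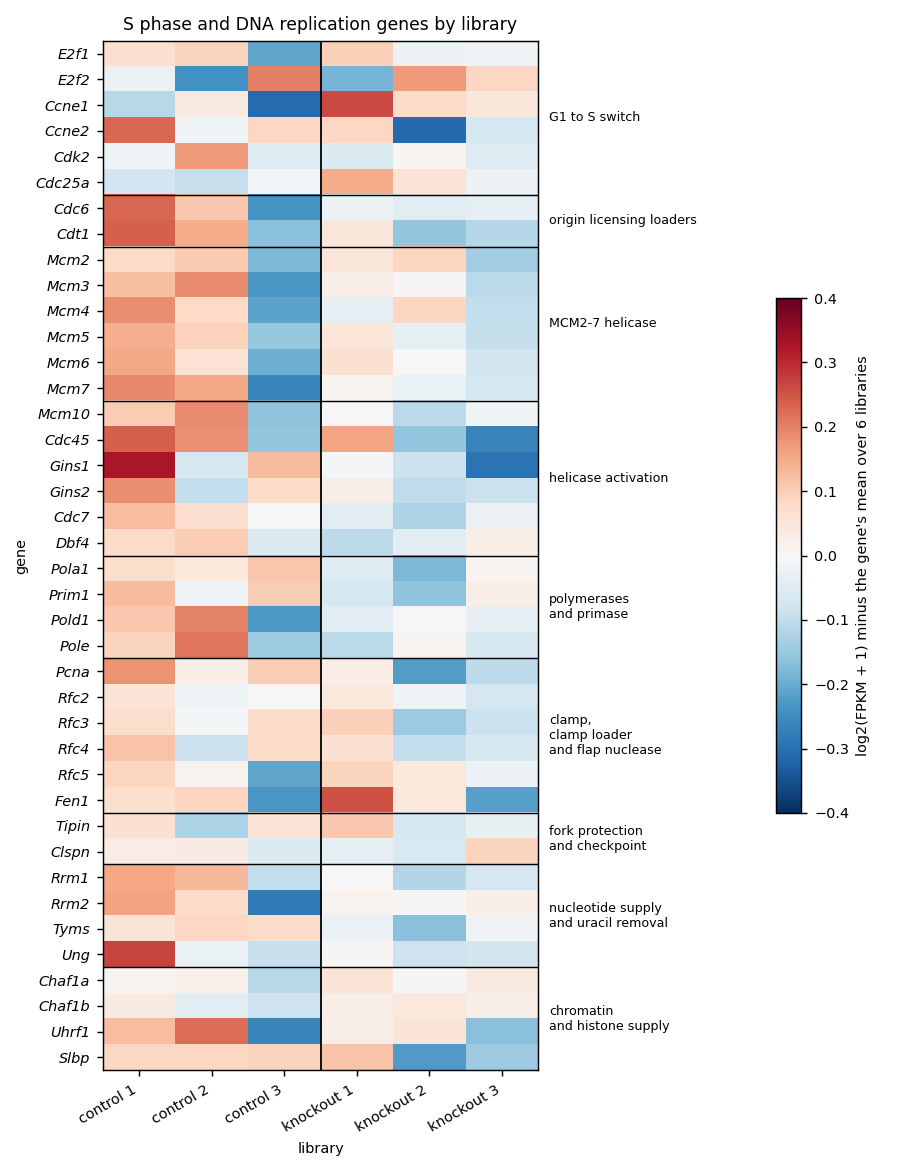
Each gene's log2(FPKM + 1) minus its mean over the 6 libraries (colour) for the 40 genes (rows, grouped by role) in each library (columns). Control replicates 1 and 2 are mostly above the mean, while control replicate 3, knockout replicate 2 and knockout replicate 3 are below it for 27, 26 and 31 of the 40 genes.

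The comparison without control replicate 3 lay further below 0 and still gave no call. For the 20 of the 40 genes lowest in that library, leaving it out raises the control mean and so lowers the difference. The median difference was then -0.13, against -0.02 for all genes tested, and 34 of the 40 genes were below 0 (85%, against 53.8% of all genes tested). At an adjusted p under 0.05 limma called 0 of the 40 higher and 0 lower, with 1.93% and 0.763% of all genes tested called. At an unadjusted p under 0.05, 8 of the 40 were lower and 0 higher, against 10.6% of all genes tested lower and 1459 of the 14149 higher. For 16 of the 40 genes all knockout libraries lay below control replicates 1 and 2, against 21.8% of all genes tested, and for 2 genes above both, against 18.8%. The smallest adjusted p was 0.130, for Mcm7. Leaving out control replicate 1 instead moved the median to -0.008, against -0.013 for all genes tested. Then 23 of the 40 lay below 0 and 0 had an unadjusted limma p under 0.05. Without control replicate 2 these were 24 and 3, counts not made over all genes tested.

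Other genes of the replication machinery, in a list of 69 that covers the origin recognition complex, further polymerase subunits, replication protein A, checkpoint kinases, nucleotide enzymes and histone chaperones, gave 0 higher and 1 lower call. The shares over all genes tested were 1.91% higher and 0.466% lower. At an unadjusted p under 0.05, 1 of the 69 was higher and 9 lower, against 8.67% and 7.40% of all genes tested. The list median was -0.08, and -0.12 without control replicate 3, where all genes tested had medians of -0.01 and -0.02. The called gene was Rnaseh2c, a subunit of the RNase H2 complex that removes ribonucleotides from DNA. It was at 58.1, 52.8 and 58.4 FPKM in control and at 40.1, 45.6 and 43.6 FPKM in knockout libraries, below the control range in each (difference -0.38, SE 0.07, limma adjusted p = 0.0453). Exons of Kat5 cover 24.8% of its exon bases, and the call was lost on leaving out any 1 of the 6 libraries (limma adjusted p between 0.0706 and 0.156). A list of 20 genes of G2 and mitosis, the next phase of the cycle, had 0 calls, against the same 1.91% and 0.466%. At an unadjusted p under 0.05, 1 of the 20 was higher and 1 lower, against 8.67% and 7.40% of all genes tested. Its median was -0.09, and -0.17 without control replicate 3. Its summed level was 856, 837 and 679 FPKM in control and 773, 745 and 692 FPKM in knockout libraries, so control replicate 3 was the lowest there too. Whether the 2 lists differ was not tested.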

How the data were processed

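RNA from heart ventricles was sequenced in 3 control and 3 knockout libraries. The authors deposited FPKM values in 1 table; per the submitters' processing notes, HISAT2 2.0.5, featureCounts 1.5.0-p3, CASAVA, fastp and mm10 were used, with options not given in the sources used here. Per the labels' protocols the library kit was NEBNext Ultra, which does not mark strand. Symbols, exon lengths and exon overlaps came from GENCODE M21, which held 54409 of 54532 IDs; a symbol on several IDs went to the ID with the highest mean. FPKM times exon length gave whole reads (within 0.02) for 98.1% to 98.5% of genes under 30 reads.

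Genes averaging 0.5 FPKM or more entered a two-sided limma 3.58.1 fit (R 4.3.3, mean-variance trend) of log2(FPKM + 1), genotype the only term, with Benjamini-Hochberg adjustment over 14149 genes. The procedure was also run on simulated counts, drawn independently for each gene, with libraries of a group differing only in depth. That run does not cover a library that differs in many genes together, as control replicate 3 does. The 40 genes and all lists were chosen with earlier results of these data known. Values in every library are given for the 2 genes of each role with the smallest unadjusted p, for Pcna (highest mean), X-linked Pola1 and called genes; those of Mcm7 and Rrm2 were added after their values were seen. Alternatives were pseudocount 0.1, other filters, quantile normalization, rescaling to a common sum (TPM) or to the sum left when haemoglobin and mitochondrial genes are dropped, library weights, a replicate block and leaving out each library. No 2 libraries were copies (median chi-square per gene at least 1.72). Other steps used matplotlib 3.10.9, numpy 2.4.6 and pandas 2.3.3 in Python 3.11.15.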

Additional observations from a re-analysis of the deposited data

How the results depend on the processing

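In each of the 14 alternatives 0 of the 40 genes were called in either direction by limma, with a smallest adjusted p between 0.130 (Mcm7, without control replicate 3) and 0.476 (Ccne1, without control replicate 1). The median of the 40 was -0.06, against -0.01 for all genes tested, and between -0.13 and -0.01 with a library left out. Rescaling to TPM moved it to 0.018 and that of all genes tested to 0.05, and rescaling without haemoglobin and mitochondrial genes moved them to 0.0076 and 0.04. As these settings shift all genes, the sign of 13 and 12 of the 40 uncalled differences changed, while the median of the 40 minus that of all genes tested was -0.04 in both, against -0.05 as reported. The same quantity was -0.01 by quantiles, -0.03 with the 5 FPKM filter, and between -0.11 and 0.004 with a library left out. The sign differed for 3 genes by quantiles, 3 with library weights and 2 to 10 with a library left out. Rnaseh2c kept its call with pseudocount 0.1, the 5 FPKM filter and library weights (limma adjusted p = 0.0469, 0.0383 and 0.0396). The wider list had 0 lower calls without a filter, after each rescaling, with the replicate block and without any 1 library. It also had 0 with quantile normalization, where Rnaseh2c had a limma adjusted p of 0.0845. Over all genes, 270 were called higher and 66 lower. Without a filter these were 110 and 12, with the 5 FPKM filter 132 were higher, after rescaling to TPM 40 were lower, and with library weights 112 were lower. Leaving out a library gave 111 to 273 higher and 23 to 108 lower calls.

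Same-numbered samples deviated together with correlations of -0.002, 0.140 and 0.164, and differently numbered ones with -0.189 to 0.080. Each knockout library had its smallest median chi-square per gene with the same-numbered control (2.80, 2.79 and 2.84). Control replicate 3 had its smallest among the knockouts with knockout replicate 1 (2.82). These values do not settle whether the numbers pair the samples. The labels give no pairing, so the main fit had none. With the replicate block 0 of the 40 genes were called, and 220 genes were higher and 64 lower over all genes. Rnaseh2c lost its call with this block (limma adjusted p = 0.0896). Depth was not limiting except for Fen1 (52 recovered reads at the lowest).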

Other observations

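RNase H2 is built of a catalytic subunit and a pair of accessory subunits, and the genes of all of them lay below the control range in each knockout library, an observation made after the values were seen. All knockout libraries were below the control range for 10.4% of all genes tested. Rnaseh2a, the catalytic subunit gene, was at 12.1, 12.0 and 10.9 FPKM in control and at 9.98, 10.1 and 9.48 FPKM in knockout libraries (limma adjusted p = 0.172), and Rnaseh2b at 12.4, 11.1 and 10.8 FPKM and at 10.4, 8.86 and 8.92 FPKM (limma adjusted p = 0.193). Rnaseh2c alone of these was called. Exons of other genes cover 14.7% of Rnaseh2a.

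Ratios of FPKM within a library were computed for 8 pairs of partner genes, chosen after the values were seen. The ratio of Ccne1 to Ccne2 was 0.665, 0.889 and 0.639 in control and 0.979, 1.14 and 0.931 in knockout libraries, and that of Rrm2 to Rrm1 was 3.17, 3.04 and 2.78 and then 3.18, 3.44 and 3.37. The ratio of Gins1 to Gins2 was 1.74, 1.62 and 1.64 in control and 1.54, 1.602 and 1.36 in knockout libraries. These were the 3 pairs whose groups did not overlap, a count not made over other pairs of genes. An exact permutation of the libraries gave p = 0.1 for each of the 3 (adjusted p = 0.267 over the 8 pairs). With 3 libraries against 3 any pair without overlap gets this p, the smallest possible, so the ratios are given as a description. Other genes cover 67.3% of the exon bases of Gins2 and 17.4% of those of Ccne2. The pairs E2f1 and E2f2, Cdt1 and Cdc6, Cdc7 and Dbf4, Prim1 and Pola1, and Chaf1b and Chaf1a overlapped. Prim1 to Pola1 was the steadiest in the knockouts, at 2.53 ± 0.107 in control and 2.57 ± 0.0469 in knockout (SD, n = 3 each).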
